A study of Mus musculus with 6 samples.

Results

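MHC class I heavy chains were followed probe by probe in a mouse T lymphoma line and a derived line. The 10 genes taken were H2-K1, H2-D1, H2-Q2, H2-Q7, H2-Q10, H2-T3, H2-T10, H2-T22, H2-T23 and H2-M3. Every gene probe that the array's own annotation gives to one of them by gene name, or else by description, was kept. Probes tied to them by accession only were not counted as members. The genes are 10 of 27655 gene and transcript names on the array. They have 19 of its 41174 gene probes, 18 by gene name and 1 by its description alone. The 10 genes were chosen with values of this same comparison already known. Their differences, and which of them lie past the threshold of a fit to all probes, are therefore a description and no support. Total RNA of each sample, labelled with Cy3, was hybridised to its own Agilent array, 6 arrays in all. There were 3 samples of S49 Neo, the parental line, and 3 of MR 4-25, a line recovered from mannitol, a sugar alcohol that raises the osmolarity of the medium. S49 is known as a T lymphoma line of BALB/c origin. Probe positions and promoter sequences below are those of reference mouse builds. Whether the line's own class I genes match them or the probes was not tested. All 6 samples were labelled as untreated and both lines were grown in the same medium, so the comparison sets a recovered line beside its parent and includes no mannitol exposure at harvest. Nothing in the labels says that the 3 samples of a line were separate cultures, or how many clones stand behind MR 4-25. The p-values given for other genes therefore cover the spread among these 6 samples alone, and that spread could be technical.

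An MHC class I molecule is a membrane heavy chain paired with the light chain beta 2-microglobulin, which holds a short peptide at the cell surface. The classical mouse heavy chains H2-K, H2-D and, in some strains, H2-L are found on nearly all nucleated cells and show peptides to CD8 T cells. The Q, T and M regions of the same complex encode non-classical heavy chains, which are less variable and often more restricted in their tissue. Heavy chain genes arose by repeated duplication and exchange of sequence, so that neighbouring genes and alleles can be nearly identical over the length of an array probe. Their transcription is known to be raised by interferon gamma, through Irf1, Nlrc5 and a conserved promoter segment.

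Levels are log2 signals relative to the 75th percentile of the gene spots of the same array, so 0 is that percentile and 1 unit is a doubling. Differences are MR 4-25 minus Neo on this scale, with the standard error of the fit to all probes and n = 3 samples a line. A level is a property of its probe and, apart from the marker sums below, is not set against the level of another probe. Those sums still carry the differences between probes. The 75th percentile was 844 to 988 intensity units on 5 arrays, where 69.9% to 76.3% of probes were well above background. It was 521 on the array of MR 4-25 3, with 61.3%. Neo 1, Neo 2, MR 4-25 1 and MR 4-25 2 were hybridised on slide 1 and Neo 3 and MR 4-25 3 on slide 2. Of the markers of lymphoid and other cells, all 8 T cell genes (Cd3d, Cd3e, Cd3g, Cd5, Thy1, Lck, Cd28 and Ptprc) were well above background on all 6 arrays. So were 2 of 5 B cell, 5 of 6 myeloid, 0 of 3 NK cell and 2 of 3 fibroblast genes, and Klrk1, an NK cell receptor gene, was on no array. Summed over the brightest probe of each gene, the T cell level was 8.0 to 8.2 in Neo and 7.93 to 8.05 in MR 4-25. The B cell level was -0.61 to -0.35 and -0.52 to 0.05, the myeloid level 0.11 to 0.66 and 0.60 to 1.02. The fibroblast level was -1.25 to -0.10 and -0.77 to 0.03, and the NK cell level -4.22 to -2.29 and -4.39 to -2.33. None of the 25 markers, each by its brightest probe, passed the limma test at an adjusted p of 0.05, and 2 had an unadjusted p under 0.05. These were Lck, with a difference of -0.51, and the myeloid gene Lyz2, at -1.26 ± 0.10 in Neo and -0.20 ± 0.14 in MR 4-25 (SD, n = 3), a difference of 1.06 with a limma adjusted p of 0.052. The part of other cells in the heavy chain differences was not tested.

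The probes moved in both directions. Of the 19, 14 had a higher mean in MR 4-25 and 5 a lower one, with differences of -3.03 to 3.55. In the fit to all 30965 probes that were well above background on at least 3 arrays, 9 of the 18 member probes that entered lay past the limma threshold of an adjusted p of 0.05 on the higher side. The share of all probes past it on that side was 0.694%. On the lower side 2 member probes lay past the threshold, where 0.601% of all probes did; together 11 of the 18 lay past it, against 1.3% of all probes. The lines did not overlap in 17 of the 18 probes, 12 with MR 4-25 above Neo and 5 below, against 10.8% and 14.4% of all probes. The median difference was 1.20 over the 18 probes and -0.02 over all probes. Since the genes were chosen on this contrast, nothing is read from these counts. In a fit with the replicate number as a block, 0 of the 18 lay past the threshold and 1 of the 30965 probes did, a share of 0.00323%.

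**Figure D1:**
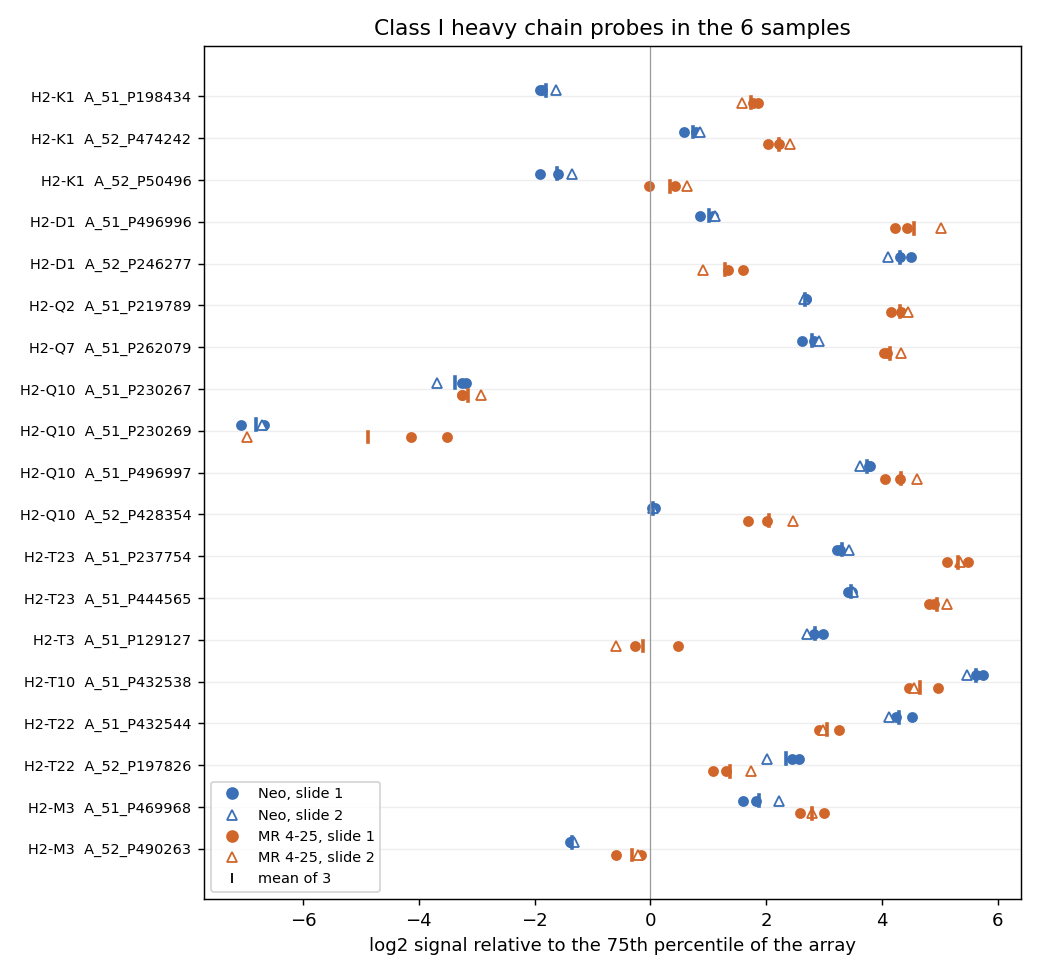
Each row is 1 probe of a class I heavy chain gene, and each point 1 sample on a log2 scale relative to the 75th percentile of its array (blue Neo, orange MR 4-25, open triangles slide 2, short bars the mean of 3). The K1, Q2, Q7 and T23 probes lie to the right in MR 4-25 and the T3, T10 and T22 probes to the left. The 2 probes named H2-D1 move in opposite directions, and the gene of the falling one, A_52_P246277, is in doubt.

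H2-K1 encodes the classical K heavy chain, and its 3 probes were all higher in MR 4-25. Probe A_51_P198434, printed in 10 spots on each array, read -1.88, -1.91 and -1.64 in Neo 1, 2 and 3 and 1.87, 1.77 and 1.58 in MR 4-25 1, 2 and 3. Every MR 4-25 sample was above every Neo sample by more than 3 log2 units. The difference was 3.55 (SE 0.16), or 11.7-fold. Probe A_52_P474242 read 0.57, 0.79 and 0.86 in Neo and 2.04, 2.22 and 2.41 in MR 4-25. Its difference was 1.49 (SE 0.18), or 2.80-fold, again with no overlap between lines. Probe A_52_P50496 read -1.59, -1.90 and -1.35 in Neo and 0.42, -0.02 and 0.63 in MR 4-25, a difference of 1.96 (SE 0.25), or 3.88-fold. The direction was shared while the size differed by 2.06 log2 units between the K1 probes.

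H2-D1 encodes the classical D heavy chain, and its 2 probes pointed in opposite directions. Probe A_51_P496996 read 1.07, 0.85 and 1.11 in Neo and 4.43, 4.22 and 5.02 in MR 4-25. All MR 4-25 samples were higher, by 3.55 (SE 0.25) on average, or 11.7-fold. Probe A_52_P246277 read 4.31, 4.51 and 4.11 in Neo and 1.35, 1.60 and 0.90 in MR 4-25. Here all MR 4-25 samples were lower, by 8.14-fold, with a difference of -3.03 (SE 0.24). The span between the 2 probes carrying 1 gene name was 6.57 log2 units. Among the member probes, H2-D1 was the only one of the 6 genes with more than 1 probe whose probes differed in sign.

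The array annotation itself disagrees on what the falling D1 probe measures. Its gene name is H2-D1, while its description in the same file is that of a thymus leukaemia antigen transcript, the product family of H2-T3. Its annotated position, chr17:34358688-34358747 on the minus strand of mouse build mm7, is 23.2 kb from the H2-T3 probe and 997 kb from the other H2-D1 probe. Its difference lies beside that of the H2-T3 probe, -2.96. The 3 probes are shown because the D1 result turns on which transcript each one binds. All are 60 bases long, and of the falling D1 probe only the first 30 are printed.
H2-D1 probe A_51_P496996: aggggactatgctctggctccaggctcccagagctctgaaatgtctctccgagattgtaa
H2-D1 probe A_52_P246277, first 30 bases: acaatgtcttgttacttctactgcaggcaa
H2-T3 probe A_51_P129127: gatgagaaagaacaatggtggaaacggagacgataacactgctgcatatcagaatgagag
Which gene the falling probe binds was not tested, as no genome was used here, and it is best read by its probe name.

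The T region holds the other falling probes. H2-T3 encodes the thymus leukaemia antigen, a non-classical chain of intestinal epithelium, and in some strains of thymocytes and T leukaemias. Probe A_51_P129127 read 2.83, 2.97 and 2.70 in Neo and -0.27, 0.48 and -0.60 in MR 4-25. It was lower in all MR 4-25 samples, by 7.80-fold, with a difference of -2.96 (SE 0.31) and the wider spread in MR 4-25 (SD 0.56 against 0.14).

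H2-T10 and H2-T22 encode closely related non-classical chains that hold no peptide and are known as ligands of a subset of gamma delta T cell receptors. The H2-T10 probe A_51_P432538, which the annotation ties to H2-T22 as well, read 5.63, 5.75 and 5.47 in Neo and 4.47, 4.96 and 4.56 in MR 4-25. The H2-T22 probe A_51_P432544 read 4.52, 4.24 and 4.12 in Neo and 2.92, 3.27 and 2.98 in MR 4-25. The other H2-T22 probe, A_52_P197826, read 2.57, 2.45 and 2.01 in Neo and 1.08, 1.31 and 1.73 in MR 4-25. In each of these 3 probes all MR 4-25 samples were below all Neo samples, by 1.93-fold, 2.36-fold and 1.96-fold in that order. Their differences were -0.95 (SE 0.20), -1.24 (SE 0.19) and -0.97 (SE 0.26), and none lay past the threshold of the fit to all probes. For A_52_P197826 the difference was -1.32 on slide 1 and -0.27 on slide 2.

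H2-T23 encodes the heavy chain of Qa-1, which presents leader peptides of other class I chains to inhibitory receptors of NK and T cells. Probe A_51_P237754 read 3.27, 3.22 and 3.43 in Neo and 5.12, 5.49 and 5.35 in MR 4-25. Unlike the T3, T10 and T22 probes, it was higher in all MR 4-25 samples, by 2.01 (SE 0.17) or 4.04-fold. A further probe, A_51_P444565, is given to H2-T23 only by its description and carries a transcript identifier as gene name. It read 3.48, 3.41 and 3.50 in Neo and 4.80, 4.89 and 5.13 in MR 4-25, a difference of 1.48 (SE 0.16) or 2.78-fold. Its mapped position in mm7 is 479 bases from a probe for H2-K2 and 2.08 Mb from the named H2-T23 probe, so its assignment to H2-T23 is uncertain.

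H2-Q2 and H2-Q7 belong to the Q region, and H2-Q7 encodes Qa-2, a chain anchored to the membrane by a lipid. The H2-Q2 probe A_51_P219789 read 2.69, 2.69 and 2.65 in Neo and 4.15, 4.32 and 4.45 in MR 4-25, a difference of 1.63 (SE 0.15) or 3.1-fold. The H2-Q7 probe A_51_P262079, the other probe with 10 spots, read 2.83, 2.61 and 2.91 in Neo and 4.03, 4.08 and 4.32 in MR 4-25. Its difference was 1.36 (SE 0.17), or 2.56-fold. Neither probe overlapped between the lines.

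H2-Q10 encodes a secreted chain known mainly as a product of the liver, and its 4 probes gave unlike sizes. Probe A_52_P428354 read 0.07, 0.02 and 0.05 in Neo and 2.02, 1.68 and 2.47 in MR 4-25, higher in all MR 4-25 samples by 2.01 (SE 0.24) or 4.03-fold. Probe A_51_P496997, tied by the annotation to H2-Q1, H2-Q6 and H2-Bl as well, read 3.79, 3.78 and 3.63 in Neo and 4.32, 4.05 and 4.60 in MR 4-25. Its difference was smaller, 0.59 (SE 0.19), and not past the threshold. Probe A_51_P230267 read -3.19, -3.25 and -3.69 in Neo and -3.25, -3.25 and -2.93 in MR 4-25. It was the only member probe of the 18 in the fit whose lines overlapped, with a difference of 0.24 (SE 0.21), of -0.03 on slide 1 and of 0.76 on slide 2. Probe A_51_P230269 was not well above background in Neo and was so in 2 of the 3 MR 4-25 samples, which left it out of the fit. It read -6.67, -7.07 and -6.70 in Neo and -3.52, -4.13 and -6.97 in MR 4-25, where the last value is that of the dim array. Each Neo array was set at the higher of its lowest signal among probes well above background and the probe's own reading. With MR 4-25 3 taken as read, though it is not above background, the MR 4-25 mean was then at least 3.04-fold higher. That rise came from the slide 1 arrays, as MR 4-25 3 read below Neo 3, its partner on slide 2. The H2-Q10 annotation thus covers 1 probe with a 4.03-fold difference and 1 with a difference of 0.59 and no overlap between lines. It also covers 1 within the spread of the samples and 1 near background.

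H2-M3 encodes a chain that holds formylated peptides, such as those from bacteria and mitochondria. Probe A_51_P469968 read 1.82, 1.60 and 2.22 in Neo and 3.00, 2.58 and 2.78 in MR 4-25. Probe A_52_P490263 read -1.36, -1.39 and -1.31 in Neo and -0.16, -0.59 and -0.21 in MR 4-25. MR 4-25 was higher in every sample of both, by 0.91 (SE 0.23) and 1.03 (SE 0.17), and neither lay past the threshold. The 2 probes, which lie apart in the gene, differed by 0.12 log2 units in their result.

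Roles follow the gene name or description, and the counts are again a description. For the classical genes, 4 of the 5 probes lay past the threshold on the higher side and 1 on the lower. The 1 on the lower side is A_52_P246277, whose gene is in doubt. Of all probes, 0.694% lay past the threshold on the higher side and 0.601% on the lower. Of the 6 Q region probes 5 entered the fit, with 3 past it on the higher side. The 6 T region probes gave 2 higher, 1 lower and 3 not past, and the 2 H2-M3 probes none. Probe A_51_P444565, of uncertain assignment, is among the 2 higher T region probes. No member probe lay past the threshold with the replicate block. Along chromosome 17 in mm7, the 5 probes with a negative difference lay next to each other, between positions 34144319 and 34358747, with no other member probe among them. The pattern did not extend to all class I probes: the H2-Q5 probe at chr17:34255077-34255511, inside the stretch, had a difference of 0.61 with no overlap, and the falling H2-Q1 probe lies outside it, at chr17:33420381-33420440. The other 14 member probes lay on either side of that stretch and all had a higher mean in MR 4-25. The nearest of them, the H2-T23 probe at chr17:34134435-34134671, is the last before the stretch. The array files give positions and no exon or UTR annotation. For 6 of the 19 probes the mapped bases span more than the probe's 60, so those probes join separate stretches of the genome.

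**Figure D2:**
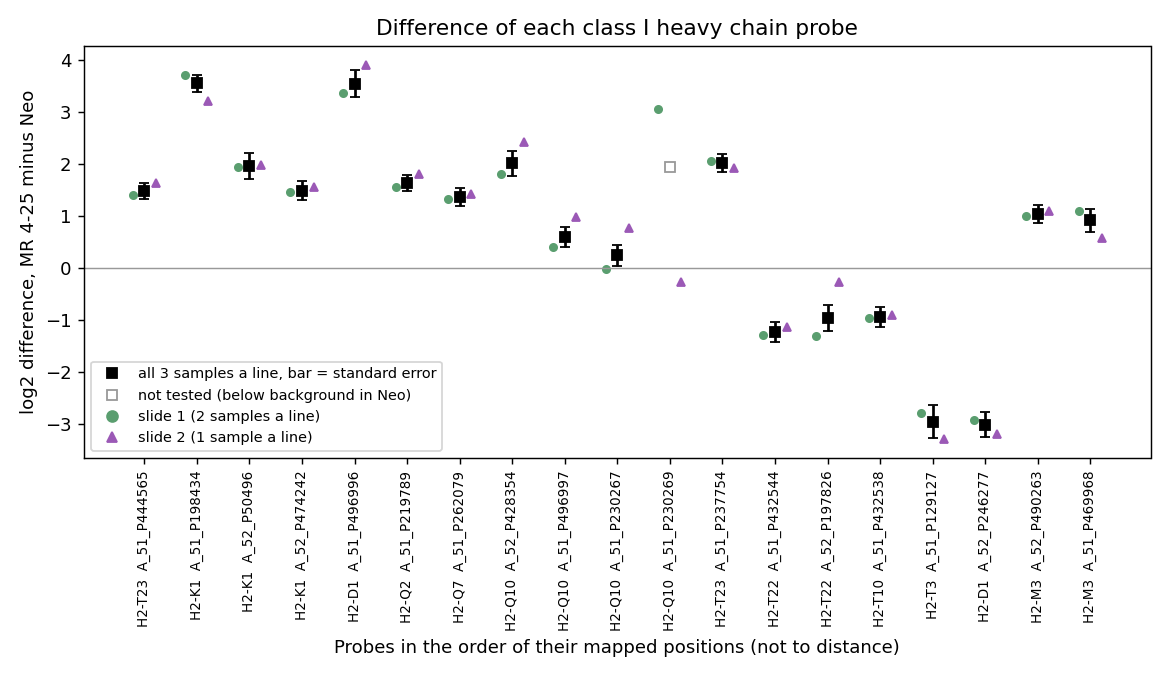
Log2 difference of MR 4-25 minus Neo for each of the 19 probes, in order of mapped position (spacing is not distance). Squares with bars are the difference and its standard error, circles slide 1 (2 samples a line) and triangles slide 2 (1 sample a line). The 5 negative differences stand together, from -0.95 to -3.03.

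Both slides gave the same sign in 17 of the 18 probes in the fit, the exception being A_51_P230267 of H2-Q10. The member probe left out of the fit, A_51_P230269 of H2-Q10, changed sign as well. MR 4-25 lay 3.05 above Neo for it among the slide 1 arrays, whereas the slide 2 pair gave -0.27, with neither array well above background. The matching share of all probes is not given and the genes were chosen on this contrast, so nothing is read from the count. The median of the 18 differences was 1.21 on slide 1 and 1.26 on slide 2.

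Sequence overlap between the probes bears on how separately they can be read. Among the 171 pairs of member probes, 3 shared a run of at least 20 identical bases, and some probes of other names were as close. The 3 sets printed here were picked because they link genes with like or unlike differences. In each, capitals mark the bases that differ from the first probe of the set within the aligned stretch, and bases outside that stretch are in lower case.
The first set joins the H2-Q2 probe, the probe described as H2-T23, and a probe named LOC56628, which was chosen after its values were seen.
H2-Q2 probe A_51_P219789: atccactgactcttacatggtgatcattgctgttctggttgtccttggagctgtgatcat
H2-T23 by description, probe A_51_P444565: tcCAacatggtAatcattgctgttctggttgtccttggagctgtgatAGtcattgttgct
LOC56628 probe A_52_P313279: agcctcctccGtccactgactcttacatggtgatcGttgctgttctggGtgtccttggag
The probe described as H2-T23 matched the H2-Q2 probe at 45 of 50 aligned bases, and their differences were 1.48 and 1.63. The LOC56628 probe matched the H2-Q2 probe at 47 of 50, a higher share. Its longest identical run with that probe was shorter, 24 bases against 35, so the 2 measures rank the probes differently. The LOC56628 probe read 1.90, 2.06 and 1.75 in Neo and 1.86, 1.69 and 1.65 in MR 4-25, which overlap. Its difference was -0.17 (SE 0.16). Probe A_52_P313279 lies 246 bases from the rising H2-D1 probe in mm7. The annotation ties it to H2-Q2 by accession, and it is not counted among the members. Another probe named LOC56628, A_51_P190499, overlaps the H2-K1 probe A_51_P198434 by 52 bases in mm7 and matched it at 49 of 57 aligned bases. Its difference was 2.75 (SE 0.70), with no overlap between lines, and not past the threshold.
The second set joins H2-T23 and H2-Q7, which differed at 9 of 59 aligned bases.
H2-T23 probe A_51_P237754: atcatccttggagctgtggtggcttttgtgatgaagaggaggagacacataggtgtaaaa
H2-Q7 probe A_51_P262079: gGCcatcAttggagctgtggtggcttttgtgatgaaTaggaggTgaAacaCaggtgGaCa
Their differences were 2.01 and 1.36. The third set joins H2-K1, H2-Q10 and a probe named LOC676708, again chosen after its values were seen.
H2-K1 probe A_52_P50496: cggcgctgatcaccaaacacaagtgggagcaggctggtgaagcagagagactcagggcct
H2-Q10 probe A_52_P428354: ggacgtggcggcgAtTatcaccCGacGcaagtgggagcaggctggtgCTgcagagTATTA
LOC676708 probe A_52_P565396: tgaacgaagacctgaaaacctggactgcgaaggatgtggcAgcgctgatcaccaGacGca
The H2-K1 and H2-Q10 probes matched at 40 of 52 aligned bases and had differences of 1.96 and 2.01. The LOC676708 probe matched the H2-K1 probe at 18 of the 21 bases they share. It read 0.52, 0.10 and 0.14 in Neo and -2.50, -2.50 and -3.00 in MR 4-25, lower in all MR 4-25 samples, by 7.57-fold. A probe for H2-Q5, A_51_P400752, was identical to the H2-Q10 probe A_51_P496997 over the 35 bases they share, and their differences were 0.61 and 0.59. How far one transcript binds to several of these probes was not tested.

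**Figure D3:**
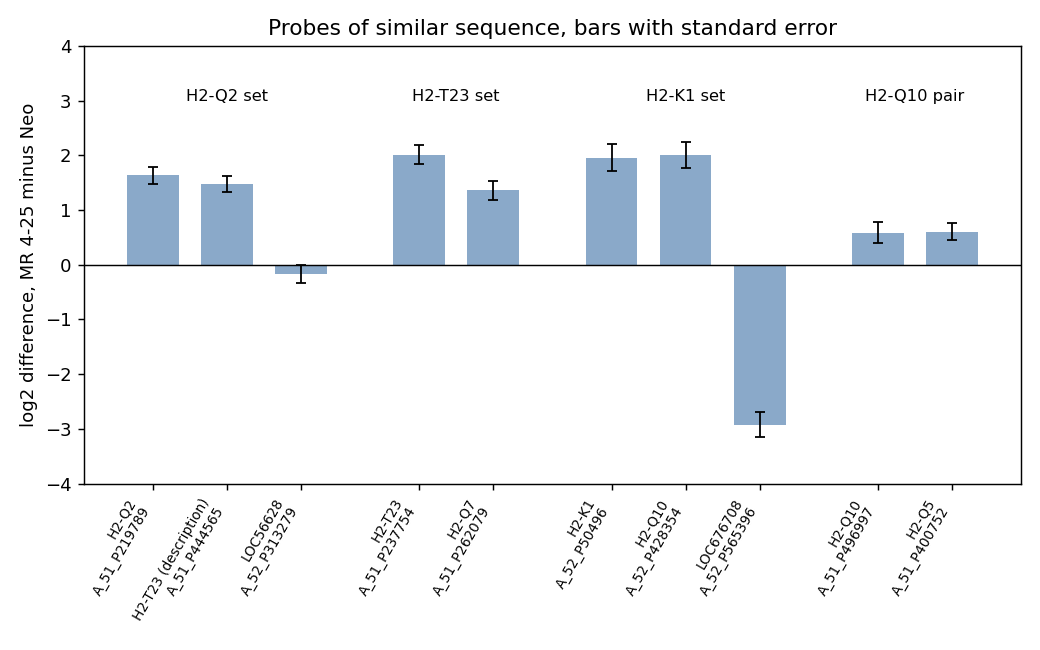
Bars give the log2 difference, MR 4-25 minus Neo, of 10 probes in 4 sets that share sequence to unlike extents, with the standard error of the fit. In the H2-Q2 set the LOC56628 probe A_52_P313279 is near 0 (-0.17). In the H2-K1 set the LOC676708 probe, which aligns with the H2-K1 probe over 21 bases only, is at -2.92. The other bars of each set are alike in sign.

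Promoter sequence was available for 9 of the 10 genes from RefSeq, as the 250 bases before and 50 after each annotated start on GRCm38.p6; H2-T10 had no entry. They were searched on both strands for a kappa B site, for a general interferon response element of a paired TTTC, and for CCAAT. The form that the interferon element takes in classical class I genes was added after the promoters were read. The kappa B site was in 10 of 32851 promoters (0.0304%), among them those of H2-D1 and H2-K1. The class I form of the interferon element was in 0.155% of all promoters and in those of H2-D1, H2-K1, H2-M3, H2-Q7 and H2-Q10. The general form, which cannot match at the same bases on the same strand, was in 3.44% and in those of H2-T22 and H2-T23. CCAAT was in 37.4% and in 7 of the 9 genes. The 250 bases before the start are printed for H2-D1, which holds the kappa B site and the class I form, and for H2-T22 and H2-T23, which share the general form but had differences of opposite sign. The matches are in capitals and show the letters searched for, with any base allowed between the paired TTTC of the general form.
H2-D1 promoter, chr17:35262844-35263093, plus strand: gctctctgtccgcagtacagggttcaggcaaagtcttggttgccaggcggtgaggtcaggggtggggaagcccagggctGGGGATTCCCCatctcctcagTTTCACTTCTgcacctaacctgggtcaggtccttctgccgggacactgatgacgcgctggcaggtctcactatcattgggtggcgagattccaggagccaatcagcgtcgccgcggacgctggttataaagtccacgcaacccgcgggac
H2-T22 promoter, chr17:36042743-36042992, minus strand: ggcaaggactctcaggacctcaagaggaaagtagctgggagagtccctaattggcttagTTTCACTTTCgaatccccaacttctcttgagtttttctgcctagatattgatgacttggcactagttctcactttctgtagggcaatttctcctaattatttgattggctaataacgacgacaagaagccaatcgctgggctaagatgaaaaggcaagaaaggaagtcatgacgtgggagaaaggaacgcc
H2-T23 promoter, chr17:36032702-36032951, minus strand: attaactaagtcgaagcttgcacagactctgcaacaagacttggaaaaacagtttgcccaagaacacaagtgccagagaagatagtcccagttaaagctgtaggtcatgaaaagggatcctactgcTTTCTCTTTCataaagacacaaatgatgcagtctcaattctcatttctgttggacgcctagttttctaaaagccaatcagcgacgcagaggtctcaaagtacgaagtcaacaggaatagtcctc
In H2-D1 the kappa B site lies at bases -171 to -161 from the start and the class I form at -150 to -141. The general form lies at -191 to -182 in H2-T22 and at -124 to -115 in H2-T23. A match is a description of letters in the reference and says nothing of the line's own sequence or of a factor in these cells.

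Beyond the members, 28 of 45 other class I and class I-like genes had a probe by name, 36 in all, of which 26 entered the fit. There 2 probes rose and 1 fell at a limma adjusted p of 0.05, against 0.694% and 0.601% of all probes. The median difference was 0.27. This list and those below were chosen with earlier results of these data known, so nothing is read from their counts. H2-K2, a class I gene near H2-K1, rose from 1.57 ± 0.07 to 4.12 ± 0.32 (SD, n = 3), a difference of 2.54 (SE 0.21) with a limma adjusted p of 0.013, which ran from 0.0044 to 0.11 over the alternatives. H2-Q1 probes, for a chain of the Q region, went both ways. A_52_P582814 rose by 1.66 (SE 0.19), limma adjusted p 0.027, and A_52_P231729 fell by 2.58 (SE 0.37), limma adjusted p 0.0497. Over the alternatives the 2 adjusted p-values ran from 0.010 to 0.17 and from 0.021 to 0.25. The third H2-Q1 probe, A_51_P425048, had a difference of 0.58 (SE 0.28). The probe named H2-D4, which was chosen after its values were seen, read -0.09, -0.13 and -0.13 in Neo and 2.17, 2.04 and 2.47 in MR 4-25, a difference of 2.34 (SE 0.17). The rising H2-Q1 probe is mapped to chr17:33480880-33480939 in mm7, away from the falling one at chr17:33420381-33420440 and A_51_P425048 at chr17:33416924-33418496. Which gene each H2-Q1 probe binds was not tested. Opposite differences under 1 gene name were thus seen for H2-Q1 as for H2-D1, whose falling probe is of doubtful gene.

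Among the light chain and peptide loading genes few probes passed the test. B2m, the light chain of all these molecules, had probes at 4.84 ± 0.18 in Neo and 6.01 ± 0.24 in MR 4-25, at 4.17 ± 0.14 and 5.07 ± 0.23, and at -0.66 ± 0.64 and 0.10 ± 0.52 (SD, n = 3). Their differences were 1.18, 0.90 and 0.76, and none passed, at limma adjusted p of 0.076, 0.12 and 0.52. Of 21 loading probes for 13 of 14 genes, 1 rose and none fell, against 0.694% and 0.601% of all probes. The probe that rose was for Tap1, a subunit of the transporter that carries peptides to the heavy chain. It read 0.15 ± 0.09 in Neo and 1.29 ± 0.09 in MR 4-25. Its difference was 1.13 (SE 0.14), limma adjusted p 0.038, and 0.013 to 0.31 over the alternatives. The median difference of the list was 0.36. For Tap2, the partner of Tap1, chosen after its values were seen, the difference was -0.50 (SE 0.15), and it did not pass, at a limma adjusted p of 0.24.

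Of the known regulators of class I genes, 24 of 25 had a probe by name, Nlrc5 not among them. Over all probes in the fit, 0.694% rose and 0.601% fell past the threshold. Of the 48 probes of these regulators 2 rose and none fell, with a median difference of 0.13. Both were for Ifng, the interferon gamma gene, which went from -4.60 ± 0.22 to -0.88 ± 0.78 on A_51_P220976 and from -4.0 ± 0.35 to 0.04 ± 0.82 on A_52_P68893 (SD, n = 3). The differences were 3.72 (SE 0.42) and 4.05 (SE 0.46), with limma adjusted p of 0.028 and 0.029, and 0.012 to 0.17 over the alternatives for each. For Irf1, a factor that binds interferon response elements and was chosen after its values were seen, 2 probes had differences of 0.98 and 0.92, and neither passed the test. MHC class II genes, which present peptides to CD4 T cells, had 17 probes, of which 12 entered the fit and none passed, nor did any have an unadjusted limma p under 0.05. In the fit with the replicate block, none of the probes of these 4 lists passed; the adjusted p there was 0.097 for H2-K2, 0.16 for Tap1, and 0.097 and 0.093 for Ifng. Leaving out any 1 array ended the calls of Tap1, both Ifng probes and the falling H2-Q1 probe, with adjusted p of 0.062 to 0.21 for Tap1, 0.052 to 0.17 and 0.071 to 0.17 for Ifng, and 0.063 to 0.25 for H2-Q1. H2-K2 and the rising H2-Q1 probe passed only without MR 4-25 3 among these 6 fits, at 0.018 and 0.035.

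The genes whose pattern over the 6 arrays was most like that of the H2-K1 probe A_51_P198434 were Gbp3, Ap1s2 and Scpep1, each with a Pearson r of 0.998 among 26381 probes of other named genes. Most like the falling H2-D1 probe A_52_P246277 were 1700012D14Rik (r 0.999), Aen (0.999) and Mterf2 (0.998). These r values describe 6 points that share their arrays and fall into 2 lines, and carry no test.

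**Figure D4:**
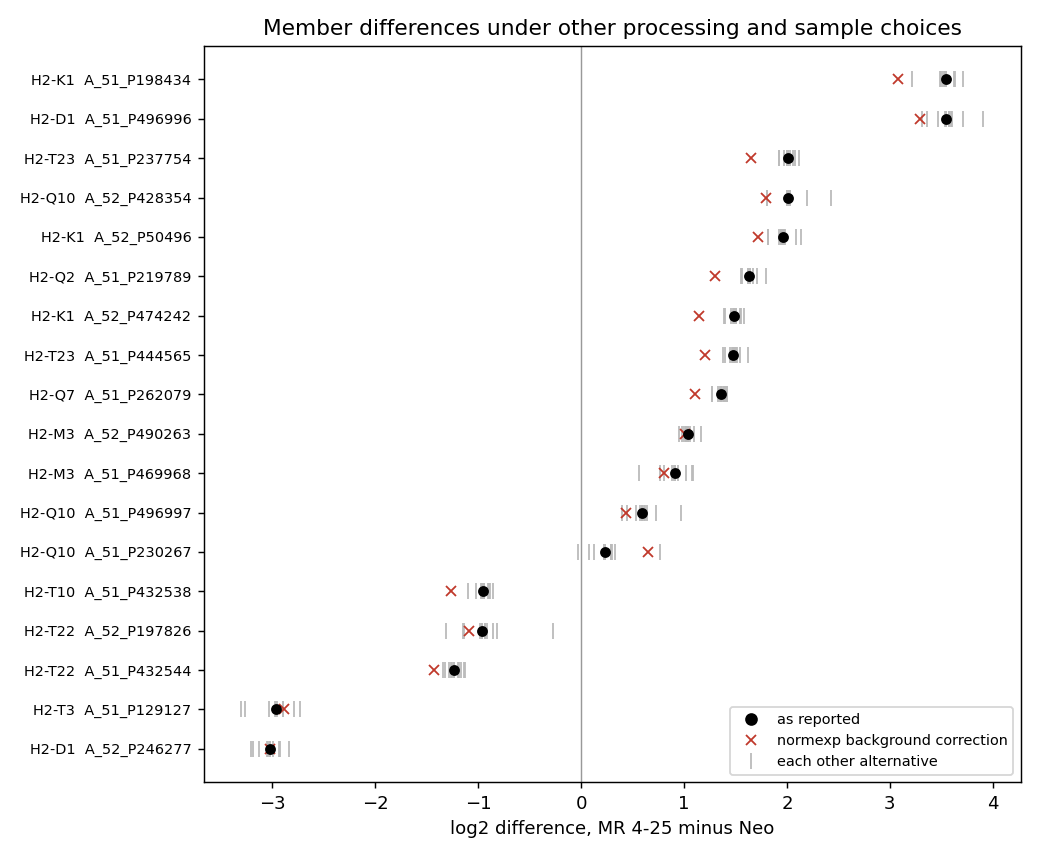
For the 18 probes in the fit, the log2 difference as reported (black), with normexp background correction (red crosses) and under each other alternative (grey ticks). The H2-Q10 probe A_51_P230267 alone crosses 0, from -0.03 to 0.76, and the D1 probes stay on opposite sides.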

How the data were processed

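The authors deposited the scanner output of 6 arrays, whose processed signal is a background-corrected Cy3 intensity, which Feature Extraction 9.5.3.1 had written, per the file headers. Spots of the array design are mapped to build mm7, per the file headers. Of 43379 gene spots on each array, those marked as outliers were masked, the log2 signals of a probe's spots were averaged, and the log2 75th percentile was subtracted. A probe entered the fit when 3 or more arrays had it well above background, which gave 30965. MR 4-25 was compared with Neo in limma 3.58.1 under R 4.3.3, by lmFit and eBayes, with Benjamini-Hochberg adjustment over these probes. The test was tried on simulated data with known shifts, independent noise and no slide effect. That trial says nothing of slide effects or shared spread in the real arrays. Members were found by gene name, or else by description, and every probe was kept apart. Gene names were updated through RefSeq (GRCm38.p6).

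The members, lists and naming rule were chosen with earlier results of these data known. Named were all member probes, B2m, Nlrc5, each list gene with a probe past the test, and the 3 genes most like the highest and lowest member probe; others are said to be chosen after their values were seen, and 1 list gene is not reported here by name.

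The replicate numbers were checked as pairs, after each line's mean was subtracted. Arrays of equal number correlated at 0.29, 0.21 and 0.55 across 30965 probes. Crossed arrays of slide 1 correlated at 0.41 and 0.36, above the equal-numbered arrays of that slide at 0.29 and 0.21. The correlations thus do not show that the numbers mark pairs. A fit with the number as a block is given as an alternative. Alternatives were normexp (offset 50), quantile and median scaling, filters, the deposited value table, slide as a block, each slide, and leaving out each array.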

Additional observations from a re-analysis of the deposited data

How the results depend on the processing

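In this paragraph counts are of probes past the limma threshold. The value table and both blocks leave a difference unchanged by construction. Of 198 member differences under the other 11 alternatives (18 probes), 178 moved by no more than 1 replicate SD and 19 by more, 9 of them on slide 2 alone and 8 with normexp. One reversed: A_51_P230267 (H2-Q10) was -0.029 on slide 1 alone. Normexp moved the median of all probes to 0.35, and relative to it all 18 members kept their sign; without Neo 3 the median was -0.12, with the same outcome. Higher and lower counts over all probes were 65 and 25 with normexp, 112 and 112 with no filter, 401 and 350 with the filter on all 6 arrays, 85 and 87 on slide 1 alone, and 1 and 0 with the replicate block. Members on the higher side numbered 3 with normexp, 5 with no filter, 2 on slide 1 alone and 0 with the replicate block. On the lower side they numbered 1 on slide 1 alone and 0 with the replicate block. With slide as a block, 241 probes were higher and 239 lower over all probes, and 9 members were higher and 2 lower. Other class I probes numbered 1 with no filter, 1 on slide 1 alone and 0 with the replicate block. Loading probes numbered 0 with normexp, median scaling, no filter, slide 1 alone or the replicate block, and 3 with quantile normalization or the filter on all 6 arrays. Regulator probes numbered 0 with normexp, on slide 1 alone and with the replicate block. Leaving out each array in turn gave 4 to 128 higher and 2 to 180 lower over all probes, with the low ends without Neo 2 and the high ends without MR 4-25 3. It gave 0 to 6 members higher, 0 to 2 lower, 0 to 2 other class I probes, 0 to 0 loading probes and 0 to 0 regulator probes. The only member past the threshold without Neo 1, without Neo 3 or without MR 4-25 1 was the H2-K1 probe A_51_P198434. Counts on slide 2 alone could not be had with 1 sample a line, and filters do not act on a difference. Each single-spot member probe rests on 1 spot an array.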
